A study of Mus musculus with 10 samples.

Results

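The genes described here are the families that dock, prime and fuse vesicles with membranes: synaptotagmins, synapsins, synaptophysin, syntaxins, syntaxin-binding proteins, VAMPs, the SNAP proteins, complexins, the Rab3 GTPases and the SV2 glycoproteins. They were selected by gene symbol, under a rule set with earlier results of these data known. This gave 65 of the 49671 genes listed in the count table, and 59 of the 65 had enough counts to be tested. Neural crest cells were sorted as GFP-positive cells from single mouse embryos at embryonic day 10.5 on a mixed 129/Sv-C57BL/6 background, and 1 polyadenylated RNA library was sequenced per embryo. All 10 embryos carried Wnt1Cre and R26mTmG, a reporter that turns cells GFP-positive after Cre has acted. The 5 control embryos were p53+/+, and the 5 embryos called p53_activated carried p53LSL-25,26/+. In that genotype Cre removes a stop cassette from 1 allele, whose product is known as a stable p53, weak as an activator itself, that raises the activity of the normal p53 made from the other allele. The labels give each embryo's genotype but neither litter nor sex. Wnt1-Cre acts in the dorsal neural tube as well as in the crest that leaves it, so the sorted cells hold progenitors, neurons, glia and mesenchyme together.

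Vesicle fusion is driven by SNARE proteins. A VAMP on the vesicle zips up with a syntaxin and a SNAP protein on the target membrane, a syntaxin-binding protein of the Sec1/Munc18 family guides the assembly, and in neurons synaptotagmins and complexins tie the last step to calcium. Neurons use dedicated members for synaptic vesicles (among them SNAP-25 and VAMP2), while every cell uses other members of the same families for traffic through the Golgi, endosomes and plasma membrane. By known use, 32 members were placed in a neuronal class, 20 in a housekeeping class and 13 in a mixed class. Snap91 is in the families by its symbol only, since it encodes the clathrin adaptor AP180 and no SNARE.

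Promoter windows of 300 bases, from 250 before to 50 after the RefSeq start on GRCm38.p6, were found for 51 of the 65 members. The 4 windows below are shown as examples from the members that fell, chosen after their values were seen: the vesicle GTPases Rab3a and Rab3c, the vesicle protein gene Syp, and Stx8, the one housekeeping member that fell. Capitals mark the E-box CAGCTG, the GC box GGGCGG, either on both strands, and the p53 half-site decamer, searched by its consensus. The windows are chr8:70754453-70754752 on the plus strand for Rab3a, the first of the pair listed for this gene, chr13:110280157-110280456 on the minus strand for Rab3c, chrX:7638330-7638629 on the plus strand for Syp and chr11:67966208-67966507 on the plus strand for Stx8.
Rab3a: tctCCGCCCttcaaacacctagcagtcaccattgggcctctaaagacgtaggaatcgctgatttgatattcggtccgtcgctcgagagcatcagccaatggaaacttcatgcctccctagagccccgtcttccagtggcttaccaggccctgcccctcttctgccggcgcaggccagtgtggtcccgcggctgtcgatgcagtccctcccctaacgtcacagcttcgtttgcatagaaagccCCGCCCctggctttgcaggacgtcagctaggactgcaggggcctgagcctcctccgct
Rab3c: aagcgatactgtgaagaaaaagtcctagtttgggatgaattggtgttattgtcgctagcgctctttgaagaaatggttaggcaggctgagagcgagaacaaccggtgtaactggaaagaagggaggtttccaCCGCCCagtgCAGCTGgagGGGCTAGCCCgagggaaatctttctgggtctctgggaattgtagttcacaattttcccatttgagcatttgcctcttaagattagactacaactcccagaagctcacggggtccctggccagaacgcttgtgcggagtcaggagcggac
Syp: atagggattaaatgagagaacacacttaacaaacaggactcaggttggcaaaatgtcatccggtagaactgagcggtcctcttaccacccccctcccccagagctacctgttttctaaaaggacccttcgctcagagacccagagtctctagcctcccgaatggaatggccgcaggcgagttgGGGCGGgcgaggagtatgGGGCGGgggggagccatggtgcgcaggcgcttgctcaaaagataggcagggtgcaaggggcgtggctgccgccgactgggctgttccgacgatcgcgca
Stx8: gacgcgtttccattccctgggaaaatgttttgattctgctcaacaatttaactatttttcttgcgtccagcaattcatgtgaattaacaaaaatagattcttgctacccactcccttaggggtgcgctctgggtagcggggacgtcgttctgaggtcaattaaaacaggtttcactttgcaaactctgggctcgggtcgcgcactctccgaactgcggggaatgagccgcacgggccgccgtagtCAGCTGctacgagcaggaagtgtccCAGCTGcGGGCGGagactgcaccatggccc

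In Rab3c the GC box (bases -118 to -113), the E-box (-108 to -103) and the p53 half-site decamer (-99 to -90) follow one another without overlap. Stx8 holds an E-box at -5 to 1 and another at 21 to 26, beside a GC box at 28 to 33. Syp has GC boxes that begin at -67 and -49, and Rab3a at -247 and -8. The other Rab3a window, not printed, holds an E-box at -185 to -180. Positions count from the RefSeq start, base 1, with -1 just before it. The printed windows of Rab3c and Stx8 lie wholly inside the GENCODE genes, whose starts are upstream of the RefSeq starts used here. Over all 32851 windows of the RefSeq table, 16.3% held the E-box, 35.7% the GC box and 8.36% the decamer. Over the 29 windows of neuronal members the shares were 37.9%, 65.5% and 13.8%, and over the 23 windows of housekeeping members 21.7%, 60.9% and 4.35%. The neuronal shares include the window of Cplx2, which holds an E-box and whose RefSeq start lies well upstream of the GENCODE gene, so it was not printed. Member windows also had a higher median GC content (62.3%) than all windows (52.7%), and some genes have several windows that overlap. Another motif was the RE1 left half-site TTCAGCACC, which belongs to the element of neuronal genes bound by REST. It was found in 1 of 67 member windows (1.49%), that of Syn1, and in 0.371% of all windows. These matches describe the letters only.

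Library totals ran from 12368058 to 23514828 counts in control and from 14644162 to 28379562 counts in p53_activated embryos. As a check of the labels, the p53 target Cdkn1a lay at 7.93 ± 1.59 CPM (the normalised read count, scaled to library size by TMM) in control and 105 ± 11.9 CPM in p53_activated libraries (SD, n = 5 each). Trp53 itself rose from 18.2 ± 5.12 to 29.1 ± 2.99 CPM (edgeR adjusted p = 0.0264). Crest markers were present in both groups. The 7 markers Sox10, Foxd3, Tfap2a, Twist1, Prrx1, Snai2 and Pax3 summed to 185 to 257 CPM in control and 175 to 215 CPM in p53_activated libraries. By the edgeR test 1 of the 7, Snai2, was lower, where 2.74% of all tested genes were called lower. Control replicates 1 and 2 stood apart. Their ratio of the embryonic globin Hbb-y to Hbb-bh1 was 4.97 and 2.69, where the remaining libraries had 1.59 to 2.08, and their Lin28a was 2.96 and 6.21 CPM, where the remaining libraries had 10.8 to 24.8 CPM.

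Of the 59 tested members, 8 fell in p53_activated embryos and 0 rose (edgeR quasi-likelihood test, Benjamini-Hochberg adjusted p under 0.05 over all 14528 tested genes). That is 13.6% of the tested members lower, where 2.74% of all tested genes were called lower, 4.49% higher and 7.23% in either direction. The 8 were Rab3a, Rab3c and Rab3d, the synaptotagmin genes Syt11 and Syt13, the complexin gene Cplx2, Syp and the syntaxin gene Stx8. On GRCm38 with GENCODE M21 they are at chr8:70754679-70758677 (Rab3a), chr13:110054187-110280996 (Rab3c), chr9:21907491-21918192 (Rab3d), chr3:88744700-88775164 (Syt11), chr2:92915098-92956058 (Syt13), chr13:54371349-54383917 (Cplx2), chrX:7638471-7653256 (Syp) and chr11:67966193-68207148 (Stx8). At an unadjusted p under 0.05, 25 members were lower and 2 higher, where 10.6% of all tested genes were lower and 12.0% higher. DESeq2 called 1 member higher, Stxbp6 (6.71% of all genes with an adjusted p were higher by it). The log2 fold change was below 0 for 48 of the 59, with a median of -0.40, against 51.4% below 0 and a median of -0.01 over all tested genes. By class, 5 of 30 tested neuronal members fell (median -0.56), 1 of 20 housekeeping members (median -0.23) and 2 of 9 mixed members (median -0.15). At an unadjusted p under 0.05, 13 neuronal, 10 housekeeping and 2 mixed members were lower, and 0, 1 and 1 in turn were higher. Without control replicates 1 and 2, 4 members were called lower, namely Cplx2, Rab3a, Syp and Syt11. Lower calls over all genes also dropped in that fit, to 194 from 398 with all 10 libraries.

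**Figure D1:**
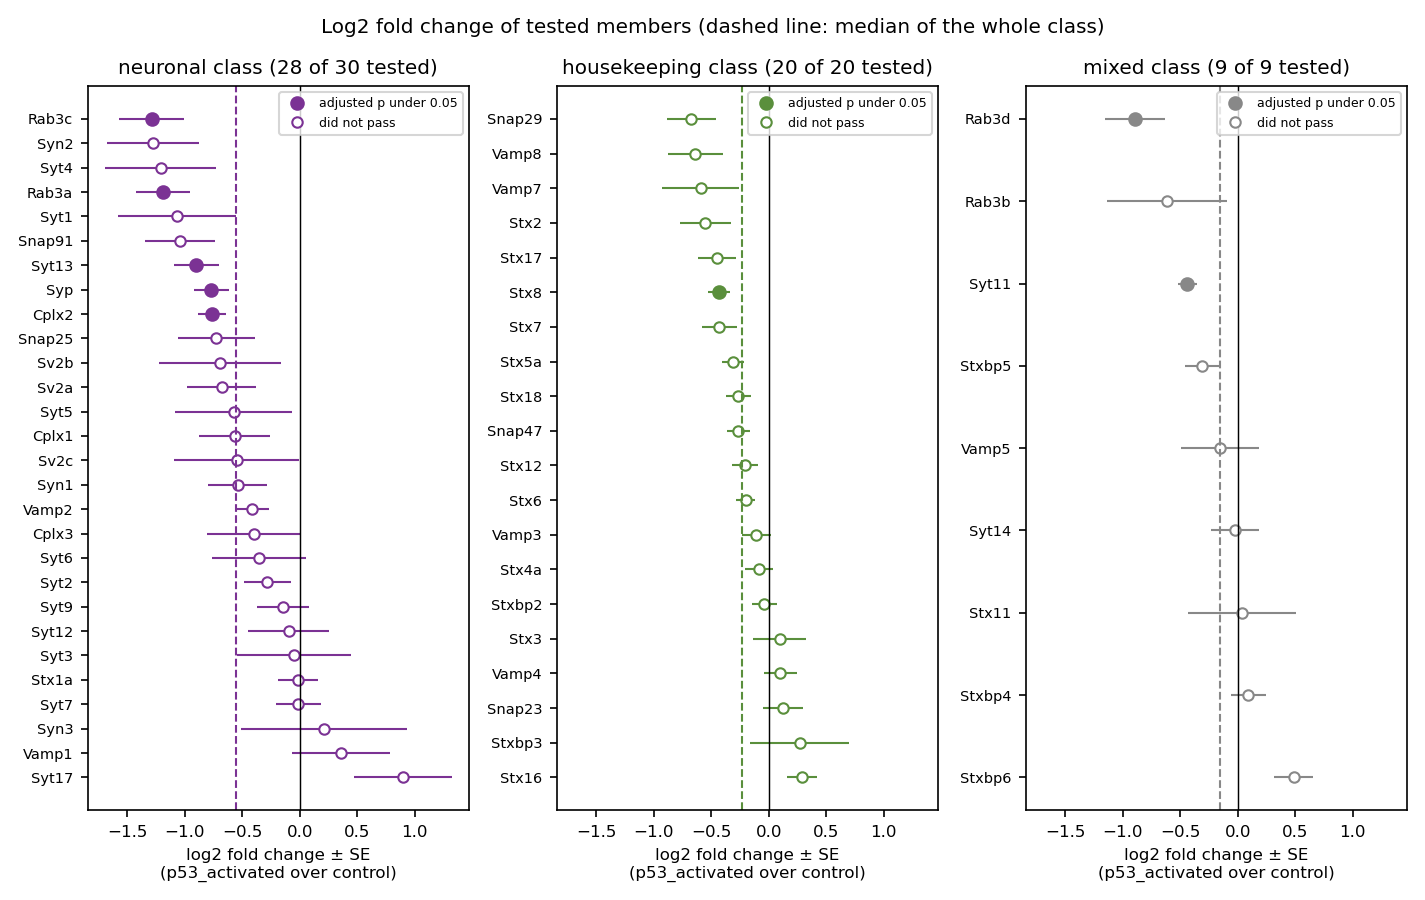
Log2 fold change (p53_activated over control, horizontal axis) with its standard error for 57 of the 59 tested members, in 3 panels by class; filled points had an edgeR adjusted p under 0.05 and dashed lines mark the medians of the whole classes (-0.56, -0.23 and -0.15). All 8 filled points lie left of 0, 5 of them in the neuronal panel.

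Levels between genes were compared as CPM per kb of exon. The most abundant member in control libraries was Syt11 (94.9 ± 1.83 CPM per kb), a synaptotagmin that is not restricted to neurons. It was followed by Stx4a (58.4 ± 11.7), a plasma membrane syntaxin of most cells, Vamp8 (47.2 ± 16.4), an endosomal VAMP, and Cplx2 (26.9 ± 4.34), the highest neuronal member. Vamp3, the ubiquitous cellubrevin gene, came next at 26.0 ± 4.33 CPM per kb, which did not differ from Cplx2 beyond the spread. The classical synaptic genes were far lower: Vamp2 had 8.71 ± 1.85 CPM per kb, Syp 5.92 ± 0.340, Stx1a 5.19 ± 0.973 and Syn1 2.53 ± 0.546. Snap25 had 0.462 ± 0.201 and Syt1, the main calcium sensor of fast release, 0.136 ± 0.0890 CPM per kb. Cplx4 and Syt10 had 0 counts in every library, which allows up to 0.106 to 0.243 CPM (3 counts) depending on the library. Stx19 (28 counts over all libraries), Syt15 (10), Syt8 (18) and Syt16 (123) were also too low to be tested.

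**Figure D2:**
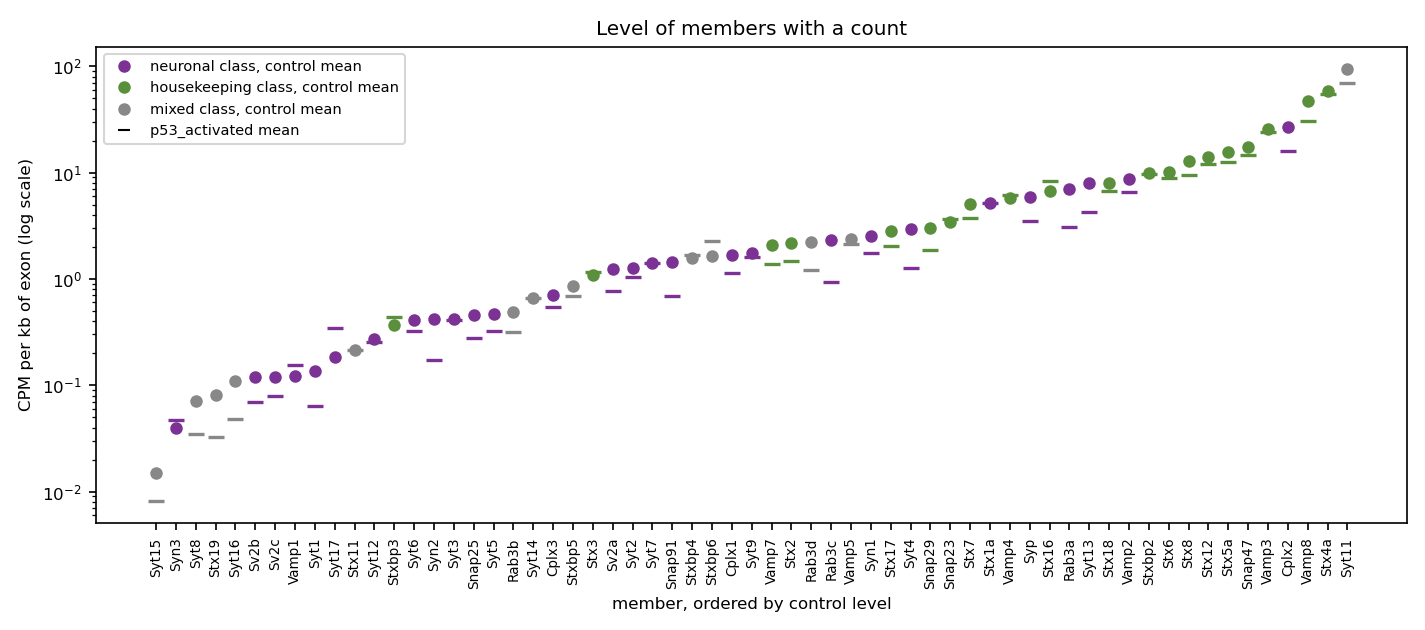
Mean level of 61 members with a count, in CPM per kb of exon on a log axis, ordered by the control level; points are control means coloured by class and dashes are p53_activated means, each over 5 libraries. Syt11, Stx4a and Vamp8 are the highest, and Snap25 and Syt1 lie in the lower part of the order among neuronal members.

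Rab3 proteins are small GTPases on secretory vesicles that prepare them for release. Rab3a, the main form on synaptic vesicles, had 25.9, 14.9, 9.84, 14.2 and 13.8 CPM in control replicates 1 to 5 and 7.71, 7.40, 8.31, 5.70 and 5.41 CPM in p53_activated replicates 1 to 5. The groups did not overlap, and control replicate 1 lay well above the other controls. Rab3a fell with a log2 fold change of -1.19 ± 0.23 (SE, adjusted p = 0.00535). Rab3c, a close relative made in neurons and endocrine cells, had 42.5, 38.4, 19.1, 21.2 and 17.9 CPM in control and 10.05, 7.88, 9.62, 17.1 and 12.1 CPM in p53_activated libraries, again without overlap. Its log2 fold change was -1.28 ± 0.28 (adjusted p = 0.0165), and -0.77 without control replicates 1 and 2, its highest libraries, where the call was lost (adjusted p = 0.0577). Rab3d, the form of exocrine and other secretory cells, had 13.0, 8.65, 10.1, 8.30 and 6.85 CPM in control and 4.82, 7.14, 2.42, 5.37 and 5.48 CPM in p53_activated libraries, with p53_activated replicate 2 above control replicate 5. Its call (log2 fold change -0.89 ± 0.26, adjusted p = 0.0476) was lost without any one of 8 libraries, control replicates 1, 2, 3 and 4 and p53_activated replicates 1, 3, 4 and 5 (adjusted p up to 0.109). Rab3b did not pass (-0.61 ± 0.52, adjusted p = 0.542) at 0.482 to 3.15 CPM over all libraries.

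**Figure D3:**
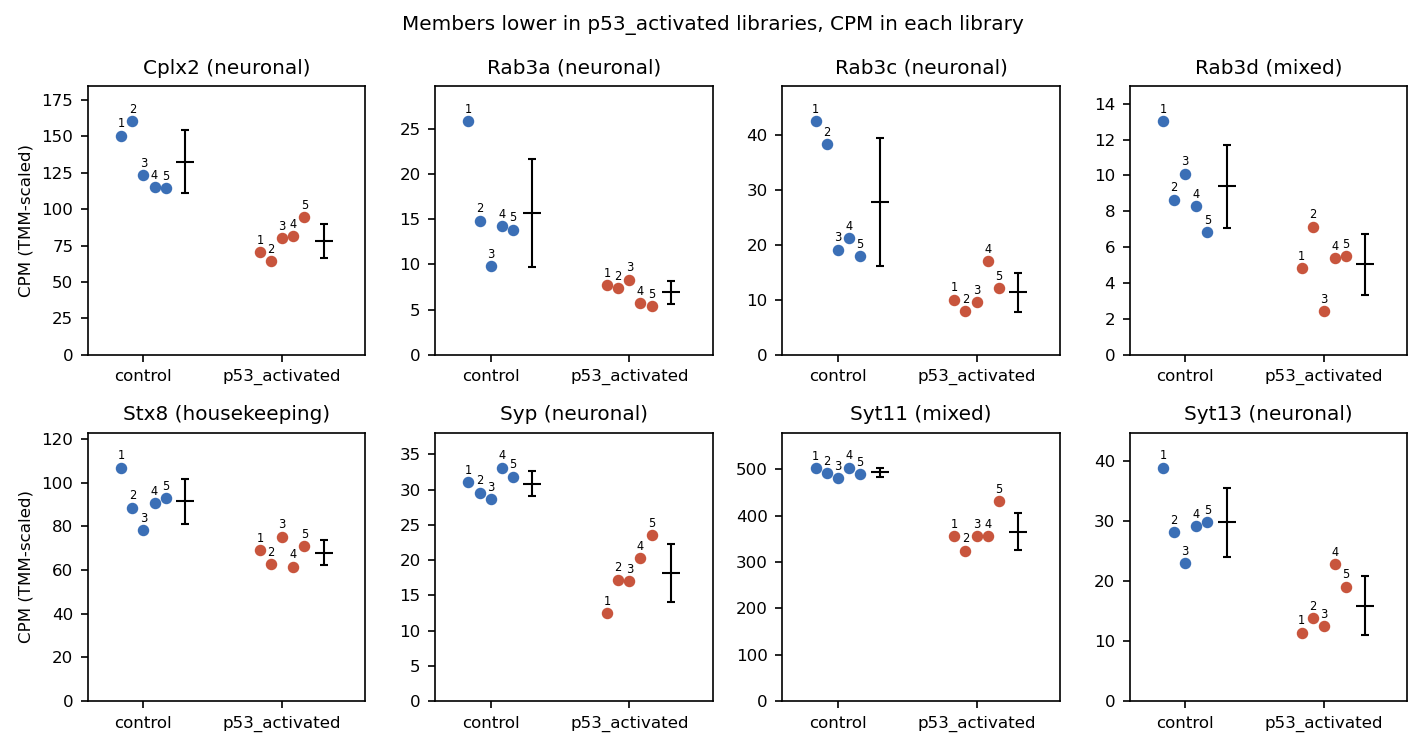
CPM (vertical axis, from 0) in each of the 5 control and 5 p53_activated libraries for the 8 members that fell; numbers are replicates, and the bar beside each group is the mean ± SD. The groups are separate in every panel except that of Rab3d, where p53_activated replicate 2 (7.14 CPM) lies above control replicate 5 (6.85 CPM).

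Among the membrane proteins of synaptic vesicles, Syp encodes synaptophysin, the most used marker of these vesicles. Syp had 31.0, 29.6, 28.7, 33.1 and 31.8 CPM in control and 12.5, 17.2, 17.0, 20.3 and 23.5 CPM in p53_activated libraries. Control libraries were tightly grouped and all p53_activated libraries lay below them. The log2 fold change of Syp was -0.77 ± 0.15 (adjusted p = 0.00535). An overlapping predicted gene, Gm14703, covers 16.8% of its exon length, so part of its count is uncertain. The SV2 genes, which encode vesicle glycoproteins, did not pass: Sv2a was at 5.72 ± 1.73 CPM in control and 3.53 ± 1.47 CPM in p53_activated libraries (log2 fold change -0.68 ± 0.30, adjusted p = 0.194), Sv2b at -0.69 ± 0.53 and Sv2c at -0.55 ± 0.54. Synapsins tether vesicles to actin in the reserve pool. Syn2 had 2.19 to 4.09 CPM in control and 0.458 to 1.94 CPM in p53_activated libraries without overlap, yet did not pass (-1.27 ± 0.40, adjusted p = 0.0630). Syn1 did not pass either (-0.54 ± 0.26, adjusted p = 0.228): p53_activated replicate 4, at 9.19 CPM, lay above 4 of the 5 controls. Syn3, which shares 14.1% of its exon length with Timp3, had at most 1.08 CPM in any library.

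Synaptotagmins are vesicle proteins with paired C2 domains, some of which bind calcium. Syt11, which does not act as a calcium sensor, had 503, 492, 481, 504 and 490 CPM in control and 356, 325, 356, 356 and 432 CPM in p53_activated libraries. The control libraries were tightly grouped, and p53_activated replicate 5 was nearest to them. Syt11 fell with a log2 fold change of -0.44 ± 0.08 (adjusted p = 0.00483). Syt13, another member without calcium binding, had 38.9, 28.2, 23.0, 29.2 and 29.8 CPM in control and 11.4, 13.8, 12.5, 22.9 and 19.1 CPM in p53_activated libraries. The highest p53_activated library (replicate 4, 22.9 CPM) lay just under the lowest control (replicate 3, 23.0 CPM). Its log2 fold change was -0.90 ± 0.19 (adjusted p = 0.0111), and the call was lost without control replicates 1 and 2 (-0.77, adjusted p = 0.0553).

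The calcium sensors of release gave no call. Syt1 was near the limit of detection in p53_activated libraries (0.315 to 0.832 CPM), against 0.664 to 2.44 CPM in control (log2 fold change -1.07 ± 0.51, adjusted p = 0.231). Syt2, the sensor of fast hindbrain and motor synapses, was at 9.72 ± 1.76 and 7.98 ± 2.03 CPM (-0.28 ± 0.21, adjusted p = 0.462). Syt7, a slower sensor also used for lysosome exocytosis, was at 10.6 ± 2.25 and 10.6 ± 2.11 CPM (-0.01 ± 0.19), and Syt9 at 7.03 ± 1.11 and 6.38 ± 1.71 CPM (-0.15 ± 0.23). Syt4, found on dense-core vesicles, differed widely among controls, with 26.2 and 14.9 CPM in replicates 1 and 2 and 4.90, 7.47 and 3.86 CPM in replicates 3 to 5. The p53_activated libraries held 3.37 to 6.83 CPM of Syt4, within the range of the last 3 controls or just below it, and the gene did not pass (-1.21 ± 0.48, adjusted p = 0.164). The predicted gene Gm26658 covers 14.5% of the exon length of Syt4. Syt17 had the largest positive log2 fold change of all members (0.90 ± 0.42, adjusted p = 0.223), with p53_activated replicate 2 at 3.47 CPM and the other 4 at 0.964 to 1.87 CPM, against 0.706 to 1.26 CPM in control.

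Complexins bind partly assembled SNARE complexes and both hold and promote fusion. Cplx2 had 151, 160, 123, 115 and 114 CPM in control and 70.5, 64.4, 80.1, 81.4 and 94.5 CPM in p53_activated libraries. No library of one group reached the other, and Cplx2 had the smallest adjusted p of the families (log2 fold change -0.76 ± 0.12, adjusted p = 0.00101). Cplx1 (2.99 to 5.69 CPM among controls, 1.58 to 3.89 CPM among the p53_activated libraries) did not pass (-0.56 ± 0.31, adjusted p = 0.301), nor did Cplx3 (-0.40 ± 0.40).

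Stx1a, Vamp2, Snap25 and Vamp1, SNAREs that drive vesicle fusion at synapses, did not pass the test. Stx1a, a neuronal plasma membrane syntaxin, had 14.4, 18.1, 12.8, 12.6 and 11.4 CPM in control and 14.2, 9.82, 13.9, 17.0 and 13.5 CPM in p53_activated libraries, fully overlapping (-0.01 ± 0.17, adjusted p = 0.977). Vamp2, the vesicle SNARE, was at 24.7 to 41.1 CPM in control and 22.1 to 27.0 CPM in p53_activated libraries (-0.41 ± 0.14, adjusted p = 0.0966), and passed without control replicate 5 (adjusted p = 0.0458). Snap25 had 4.38, 4.56, 3.24, 1.91 and 1.603 CPM in control and 1.77 to 2.13 CPM in p53_activated libraries, all of them inside the control range (-0.72 ± 0.33, adjusted p = 0.208). Vamp1 stayed at or under 2.52 CPM in every library (0.36 ± 0.43). Snap91 missed the threshold narrowly (-1.04 ± 0.30, adjusted p = 0.0525). It had 23.7 and 16.3 CPM in control replicates 1 and 2 and 9.01, 8.74 and 8.01 CPM in control replicates 3 to 5. Its p53_activated libraries held 4.75 to 8.79 CPM.

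In the housekeeping class Stx8, an endosomal syntaxin, was the 1 member of 20 that fell at an adjusted p under 0.05. Without adjustment, 10 of the 20 were lower at p under 0.05, where 10.6% of all tested genes were. Stx8 had 107, 88.6, 78.2, 90.7 and 93.1 CPM in control and 69.0, 62.9, 75.3, 61.6 and 71.0 CPM in p53_activated libraries, without overlap (-0.43 ± 0.10, adjusted p = 0.0149). The call was lost without control replicates 1 and 2 (adjusted p = 0.0537) and without p53_activated replicates 4 and 5 (adjusted p = 0.0567). Stx5a, a Golgi syntaxin, came close (-0.31 ± 0.10, adjusted p = 0.0581), as did Snap29, which acts in autophagosome fusion (-0.67 ± 0.21, adjusted p = 0.0647). Of further endosomal and Golgi members none of these passed: Stx7 was at -0.43 ± 0.15, Stx12 at -0.21 ± 0.11, Vamp4 at 0.10 ± 0.15, Vamp7 at -0.59 ± 0.33 and Vamp8 at -0.64 ± 0.24. Vamp8 passed without control replicate 3 (adjusted p = 0.0250). Plasma membrane members were spread around 0: Stx4a was at -0.09 ± 0.12, Vamp3 at -0.11 ± 0.13, Snap23 at 0.12 ± 0.17 and Stxbp2 at -0.04 ± 0.11, whereas Stx2 was at -0.55 ± 0.22 (adjusted p = 0.152) and Stxbp3, at only 0.831 to 4.15 CPM, at 0.27 ± 0.43. Snap47 (-0.26 ± 0.10, adjusted p = 0.133) and Stx18 (-0.26 ± 0.11, adjusted p = 0.163) were lower in every p53_activated library than in any control without passing. Stx18 shares 32.3% of its exon length with Gm42858 and the neuronal gene Nsg1, and Snap47 shares 11.6% with Jmjd4. Groups did not overlap for 10 of the 59 tested members in the lower direction (3.52% of all tested genes) and for 1 in the higher direction (4.54% of all tested genes), which was Stxbp6, the gene of amisyn, a SNARE-binding inhibitor of fusion (8.67 ± 1.42 against 12.1 ± 1.61 CPM, 0.49 ± 0.17, adjusted p = 0.0896).

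**Figure D4:**
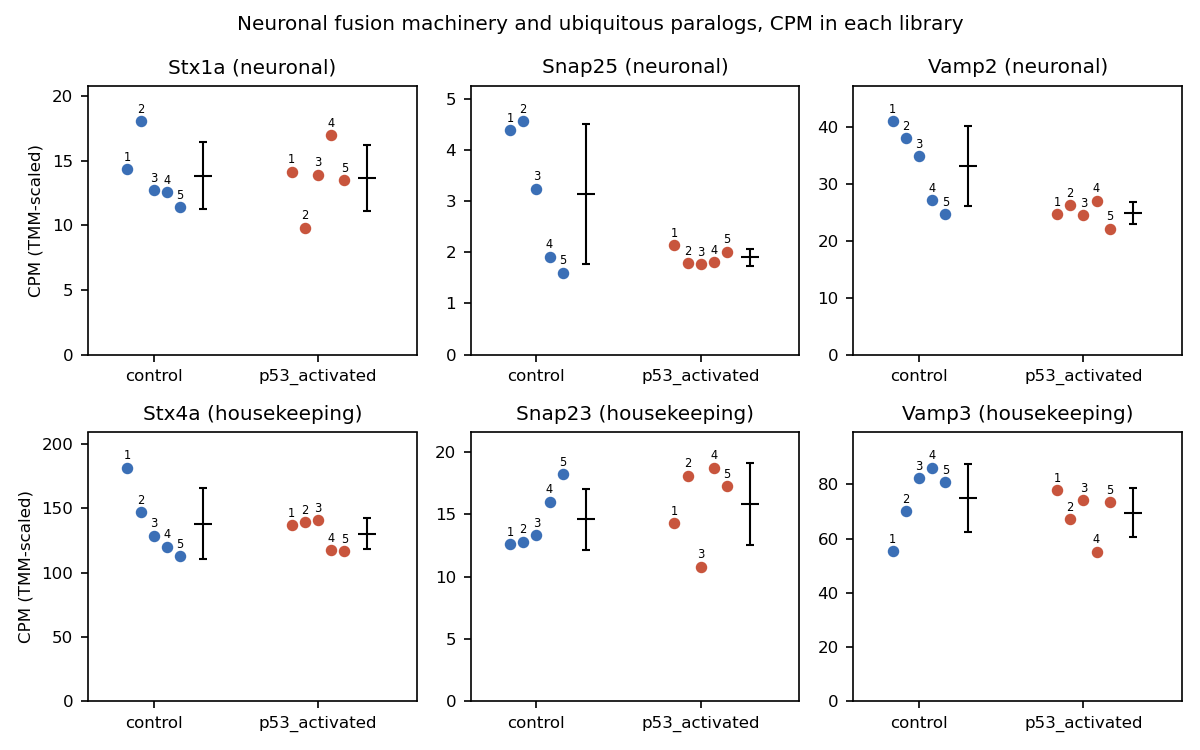
CPM (vertical axis, from 0) in each library for 3 neuronal SNAREs (Stx1a, Snap25, Vamp2) and 3 ubiquitous paralogs (Stx4a, Snap23, Vamp3), with replicate numbers and the mean ± SD. The groups overlap in all 6 panels, and control replicates 1 and 2 are the highest controls for Snap25 and Vamp2.

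Neuronal genes were then set against paralogs within the same library, which removes the scaling of the library. The pairs given here are Snap25 and Snap23, Vamp2 and Vamp3, and Syt1 and Syt11, of 5 that were computed. Snap23 and Vamp3 are in the housekeeping class, whereas Syt11 is in the mixed class and itself fell. The log2 ratios of these pairs were lower in p53_activated than in control libraries, by 0.69, 0.29 and 0.41 in this order. For Snap25 against Snap23 the log2 ratio was -2.28 ± 0.89 in control and -2.96 ± 0.34 in p53_activated libraries (SD, n = 5 each; exact permutation p = 0.151 before adjustment). It ran from -3.42 to -1.47 in control and from -3.29 to -2.54 in p53_activated libraries, which overlap. None of the 3 shifts passed an exact two-sided permutation test over the 10 libraries after adjustment over all 5 pairs (adjusted p = 0.278, 0.310 and 0.310; the smallest p the design allows is 0.00794). A difference in response between a neuronal member and its paralog was thus not shown by these pairs.

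Further genes of the release pathway were read from a list of 60, of which 52 were tested. Among 28 tested neuronal genes of this list, which cover the active zone, vesicle transporters and endocytosis, 1 fell and 0 rose, and the median log2 fold change was -0.51. The 1 is 3.57%, near the 2.74% of all tested genes called lower. At an unadjusted p under 0.05, 12 of the 28 were lower and 0 higher, where 10.6% of all tested genes were lower. The one that fell was Syngr1, encoding a vesicle protein related to synaptophysin (5.49 ± 0.723 against 3.05 ± 0.860 CPM, -0.84 ± 0.24, adjusted p = 0.0476). No gene of the list was called (0 of 52) without any one of control replicates 2 and 4 and p53_activated replicates 2, 3 and 5, with the replicate block, with limma-voom or with a mean CPM over 1. The vesicular transporters Slc17a6 for glutamate (-1.32 ± 0.38, adjusted p = 0.0528) and Slc18a2 for monoamines (-0.87 ± 0.27, adjusted p = 0.0609) did not pass, nor did Scamp5, a carrier membrane protein (-0.67 ± 0.21, adjusted p = 0.0647). Control replicates 1 and 2 were the highest for Slc17a6 (19.0 and 11.2 CPM, against 4.66 to 6.57 CPM in replicates 3 to 5). The same held for Scamp5 (22.6 and 21.4 CPM, against 12.4 to 12.9 CPM), whereas Slc18a2 was highest in control replicate 3 (11.0 CPM). DESeq2 called 8 genes of the whole list in either direction, where it called 11.5% of all genes with an adjusted p. Active zone genes lay on both sides of 0. Unc13a and Unc13b, the Munc13 priming factors, were at 0.47 ± 0.31 and 0.25 ± 0.15, and Bsn at 0.17 ± 0.25. Rims4 was at -0.82 ± 0.34, Erc2 at -0.36 ± 0.19 and Rimbp2, with 0.315 to 2.62 CPM over all libraries, at -1.40 ± 0.49. None of these passed. Of 24 ubiquitous genes of the list 0 were called by edgeR, 2 were higher and 3 lower at an unadjusted p under 0.05 (over all tested genes 12.0% and 10.6%), and their median was -0.02. They include Nsf, the ATPase that takes SNARE complexes apart (0.40 ± 0.17, adjusted p = 0.170), and its partners Napa (-0.03 ± 0.12) and Napg (0.26 ± 0.16). The active zone scaffold Erc1 was at 0.43 ± 0.18 (adjusted p = 0.155), the sorting factor Vps33b at 0.58 ± 0.37 (adjusted p = 0.374) and the Golgi SNARE Bet1 at -0.31 ± 0.10 (adjusted p = 0.0607).

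Library by library, the summed CPM of the 32 neuronal members was 525, 478, 370, 370 and 350 in control and 237, 243, 247, 297 and 294 in p53_activated replicates 1 to 5. Every p53_activated library lay below every control, and control replicates 1 and 2 were the highest. Of the 30 tested neuronal members, 14 had their highest control level in replicate 1 and 9 in replicate 2, and 11 had their highest p53_activated level in replicate 4. The 20 housekeeping members summed to 845 to 1038 CPM in control and 772 to 797 CPM in p53_activated libraries, also without overlap. These sums are descriptions, and the most abundant genes weigh most in them.

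General markers of neurons, like the neuronal members, had a lower sum in p53_activated libraries. Of 15 such markers (among them Tubb3, Stmn2, Elavl4, Nefl and Isl1) 11 fell, 0 rose and none was at 0 in all libraries. Over all tested genes edgeR called 2.74% lower and 4.49% higher. At an unadjusted p under 0.05 these shares were 10.6% and 12.0%. The 15 neuron markers summed to 1058 to 1352 CPM in control and 551 to 841 CPM in p53_activated libraries. Among controls their sum was highest in replicates 4 and 5 (1352 and 1221 CPM), whereas that of the neuronal members was highest in replicates 1 and 2. Per CPM of these markers, the neuronal members summed to 0.360 ± 0.0866 CPM in control and 0.401 ± 0.0387 CPM in p53_activated libraries, with ranges of 0.274 to 0.481 and 0.353 to 0.441. The ranges overlap through control replicates 1 and 2 (0.481 and 0.409) alone, since control replicates 3 to 5 (0.350, 0.274 and 0.287) lay below every p53_activated library. Per CPM of the housekeeping members, the neuronal members summed to 0.395 to 0.506 CPM in control and 0.305 to 0.381 CPM in p53_activated libraries, without overlap. In sorted bulk cells, fewer neurons and less of these RNAs per neuron cannot be told apart. Among other cell types, the 4 glial markers summed to 232 to 269 CPM in control and 111 to 189 CPM in p53_activated libraries and 2 of them, Fabp7 among these, fell. The 8 neural tube progenitor markers overlapped between the groups (726 to 1197 and 907 to 1246 CPM; 1 of 8, Olig3, rose), as did 7 epithelial markers (73.8 to 177 and 41.2 to 120 CPM; 0 of 6 tested called, 2 lower at an unadjusted p under 0.05). Replicates 4 and 5 of both groups had the highest epithelial sums of their group (177 and 176 CPM in control, 120 and 101 CPM in p53_activated libraries). Among these 4 libraries, and among the other 6 (73.8 to 89.7 and 41.2 to 58.9 CPM), every p53_activated library lay below every control. This split was made on the same sums after they were seen, so the order within it is a description and was not tested. The same 4 libraries had the highest erythroid sums of their group. The 5 muscle and heart markers (32.4 to 78.5 and 28.6 to 55.1 CPM), 5 erythroid markers (669 to 3607 and 387 to 4816 CPM) and 4 macrophage markers (3.36 to 30.8 and 5.76 to 20.9 CPM) overlapped as well. By edgeR 0 of these genes were called, and at an unadjusted p under 0.05 there were 2 muscle markers lower, 0 erythroid and 0 macrophage markers. Their part in the results of the vesicle genes was not tested.

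**Figure D5:**
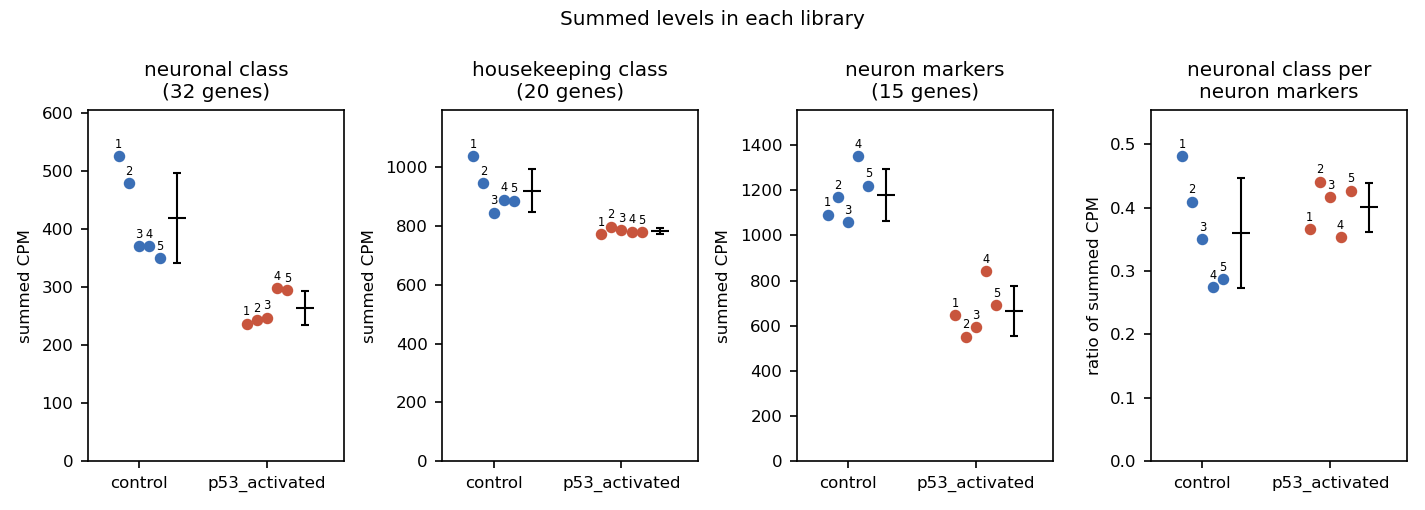
Summed CPM of the 32 neuronal members, the 20 housekeeping members and 15 neuron markers, and the ratio of the first to the third, in each library (numbers are replicates; bars are mean ± SD of 5). The first 3 sums do not overlap between the groups, while the ratio does (0.274 to 0.481 in control, 0.353 to 0.441 in p53_activated), through control replicates 1 and 2 alone.

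In the authors' deposited table of their own comparison, 14 of the 60 members with an adjusted p were under 0.05, all of them lower, where 4.43% of all genes with an adjusted p were called lower in that table. The 14 include all 8 members called here. Snap29, Snap91, Stx5a, Syn2 and Vamp8, also lower in that table, had edgeR adjusted p of 0.0525 to 0.137.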

How the data were processed

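Raw read counts for each Ensembl gene in each of the 10 libraries were deposited by the authors. A second table holds, per the file headers, a log2 fold change and an adjusted p-value for each gene from the authors' own comparison, and its symbols were used. The submitters' processing notes list HISAT2 (version 2.0.4), SAMtools (version 1.3.1), HTSeq (version 0.6.1) and DESeq2 (version 1.14.1) with GRCm38, without their roles. Annotation release and strand setting: not given in the sources used here. Reads of overlapping genes may therefore be split between them.

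Genes passing filterByExpr (minimum count 10, minimum total 15) were scaled by TMM and tested together with robust quasi-likelihood fits in edgeR (version 4.0.16, R 4.3.3), with Benjamini-Hochberg adjustment. Adjusted p of single genes come from edgeR where no tool is named. The standard error is the size of the log2 fold change over the root of the F statistic. Ratios of paralogs used log2 CPM with a prior count of 2. Exon lengths and gene positions are from GENCODE M21, promoters from RefSeq. In simulated counts for this comparison 14176 genes were tested. The 200 genes that were changed were drawn from those with a mean over 2 CPM. Of these, 34.3% of 1.5-fold, 68.7% of 2-fold and 98.5% of 4-fold changes were recovered, and 6 of 139 calls were false. Recovery of changes in genes at lower levels was not simulated.

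The members, classes and lists were chosen with earlier results of these data known. The rule for named genes took the called members, the neuronal core, the ubiquitous paralogs, the most abundant member of each family, the largest changes either way, 5 other release genes in each direction by p, Cdkn1a, Trp53 and the 3 genes most like Snap25. Rab3b, Snap91, Stx18, Stxbp6, Sv2b, Sv2c, Syn2, Syn3, Syt2, Syt7, Syt9, Cplx3, Unc13a, Bsn, Rims4, Erc2, Rimbp2 and Napa were named after their values were seen. Results of some members and markers are not reported here, though they enter the counts. Alternatives were RLE and upper quartile scaling, other filters, DESeq2 (version 1.42.0), limma-voom (limma 3.58.1), the replicate number as a block, and leaving out libraries.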

Additional observations from a re-analysis of the deposited data

Results flagged for a closer look

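In 4 of 68 groups of 5 libraries, over 34 named members, 1 library lay far from the other 4 by Dixon's ratio, where chance gives about 1 in 20. Control replicate 1 had 5.69 CPM of Cplx1, against 2.99 to 3.38 CPM in the other controls. Control replicate 5 had 13.8 CPM of Snap29, against 9.10 to 10.1 CPM. Control replicate 2 had 34.1 CPM of Stxbp2, against 42.2 to 44.4 CPM, and 2.44 CPM of Syt1, against 0.664 to 1.02 CPM. None of these 4 genes was among the 8 members that fell.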

How the results depend on the processing

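The falls of Cplx2, Rab3a, Syp and Syt11 were called under all 19 other settings that refit the whole table (adjusted p up to 0.00975, 0.0469, 0.0222 and 0.0211). Syt13 lost its call under 1 of these settings, Stx8 under 2, Rab3c under 3 (up to 0.0596) and Rab3d under 12 (up to 0.169). With DESeq2, 14 members were called lower and 1 higher (Stxbp6). It called 8 neuronal members lower, 4 housekeeping members and 8 other release genes. Among all genes with an adjusted p it called 1664 (11.5%), and 4.75% were lower. Upper quartile scaling gave 2 housekeeping and 5 other release genes, and moved the share of higher calls among all genes from 62.1% to 51.7%. The other release genes called were 3 with no filter beyond any count, and 0 with a mean CPM over 1 or with limma-voom. At an adjusted p under 0.01, 4 members were lower.

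Same-numbered embryos of the 2 groups did not deviate together (correlations of 0.041 to 0.097 over 2000 genes, below 0.1, with 1 of 5 control libraries correlating best with its own number), so the numbers were not taken as pairs. With the replicate block, 7 members were called lower, 2 housekeeping members and 0 other release genes, Snap29 joining and Rab3c (adjusted p = 0.0528) and Rab3d (0.0718) dropping out.

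Leaving out single libraries gave 7 to 11 members called lower, 5 to 8 neuronal and 1 to 2 housekeeping members, 0 to 3 other release genes and 636 to 1025 genes in all (636, 692 and 652 without control replicate 2, control replicate 4 and p53_activated replicate 5 in turn). The 8 neuronal calls came without p53_activated replicate 4. Without control replicates 1 and 2 together there were 4 members lower, 3 neuronal, 0 housekeeping and 0 other release genes, among 656 genes. Without p53_activated replicates 4 and 5 together 8 neuronal members and 3 other release genes were called. The paralog shifts kept their sign and their side of the threshold with a prior count of 0.5 and without any single library. Counting the mixed class as neuronal gave 7 calls.

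Genes near 0 changed sign: Stx1a to 0.0013, 0.0014 and 0.012 with no filter, a mean CPM over 1 and limma-voom, and to 0.0024, 0.10 and 0.088 without control replicate 1, control replicate 2 and p53_activated replicate 2 in turn (-0.11 to 0.10 over all single libraries), and to 0.16 without both control replicates 1 and 2. Stx4a went to 0.034 without control replicate 1 (-0.15 to 0.034 over single libraries), 0.11 without both and 0.022 without p53_activated replicates 4 and 5. Without that pair Snap23 was at -0.0041 and Stxbp3 at -0.29. Without p53_activated replicate 4 Stxbp2 was at 0.0075 (-0.098 to 0.0075 over single libraries) and Stxbp3 at -0.048 (-0.048 to 0.47). The cause of these changes was not tested. None of these 5 genes passed a test under any setting.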

Other observations

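Over the 10 libraries of both groups, the genes outside the families whose log2 CPM followed that of Snap25 most closely were Chka (Pearson r = 0.96), the predicted gene Gm20033 (0.95) and Ttc19 (0.94). These values describe a gene with 441 counts over all libraries, and the 10 libraries share the difference between the groups.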
